A study of Mus musculus with 12 samples.

Results

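Oxidative phosphorylation genes were followed in liver RNA of mice given triptolide with or without crocin. The genes were taken by name from the deposited gene table: mitochondrial genes whose names begin with mt-Nd, mt-Co, mt-Atp or mt-Cytb, nuclear genes whose names begin with Nduf, Uqcr, Cox4 to Cox8 or Atp5, and Sdha, Sdhb, Sdhc and Sdhd. Of 55487 genes, 125 matched, 14 of them were left out because their names end as pseudogenes (-ps) and 2 because no library held a count (Cox8c and Cox7b2). The 109 that remained comprised 13 genes of the mitochondrial genome and 96 nuclear genes, of which 88 encode subunits, or are copies of subunit genes, and 8 are complex I assembly factors of the Ndufaf family. Apart from the 2 genes without a count, membership went by name and not by a measured value.

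The study examined whether crocin, a carotenoid glycoside of saffron, lessens the liver toxicity of triptolide, a diterpenoid of Tripterygium wilfordii that blocks transcription through the XPB subunit of TFIIH. Livers came from young adult male Kunming mice, an outbred stock, without arthritis, and every group held 4 mice with 1 library each. Oral gavage for 7 days delivered triptolide (300 μg/kg) plus crocin (100 mg/kg) to MTP+CR mice, the same dose of triptolide alone to MTP mice, and normal saline to Control mice. Every mouse of both treated groups thus received triptolide, a group with crocin alone is not analysed here, and how the sequenced mice were picked from each group is not given in the sources used here.

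Oxidative phosphorylation is the main ATP source of the hepatocyte, a cell rich in mitochondria. Complexes I and II pass electrons from NADH and succinate to coenzyme Q, complex III passes them on to cytochrome c, complex IV reduces oxygen, and complex V, the ATP synthase, uses the resulting proton gradient. Complexes I, III, IV and V join core subunits from the mitochondrial genome, transcribed by a polymerase of their own from both strands as long precursors, with a majority of subunits encoded in the nucleus and transcribed by RNA polymerase II, whereas complex II is nuclear only.

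The sequences that bear on the results are given here. The promoters belong to Atp5md and Ndufb2, called higher in MTP+CR than in MTP livers, to Ndufb6, called higher in MTP+CR than in Control livers, and to Atp5k, chosen after its levels were seen to fall into a low and a high set of libraries. They run from 250 bases before the start to 50 bases after it in RefSeq on GRCm38.p6, read 5′ to 3′ on the gene's strand, at chr19:47090598-47090897 (minus) for Atp5md, chr6:39592315-39592614 (plus) for Ndufb2, chr4:40279372-40279671 (minus) for Ndufb6 and chr5:108434350-108434649 (minus) for Atp5k. Capitals mark matches on either strand to the ETS core CCGGAAG and to the palindromic NRF1 site (its middle pair of bases any base and T), 2 motifs common in promoters of respiratory chain genes. Ndufb2 has no match in this window.
Atp5md: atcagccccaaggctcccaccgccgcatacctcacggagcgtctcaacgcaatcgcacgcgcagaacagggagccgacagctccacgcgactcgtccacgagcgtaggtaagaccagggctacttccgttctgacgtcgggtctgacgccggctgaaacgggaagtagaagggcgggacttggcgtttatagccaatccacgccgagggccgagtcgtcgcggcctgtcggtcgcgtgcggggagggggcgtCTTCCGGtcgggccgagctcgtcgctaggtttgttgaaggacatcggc
Ndufb2: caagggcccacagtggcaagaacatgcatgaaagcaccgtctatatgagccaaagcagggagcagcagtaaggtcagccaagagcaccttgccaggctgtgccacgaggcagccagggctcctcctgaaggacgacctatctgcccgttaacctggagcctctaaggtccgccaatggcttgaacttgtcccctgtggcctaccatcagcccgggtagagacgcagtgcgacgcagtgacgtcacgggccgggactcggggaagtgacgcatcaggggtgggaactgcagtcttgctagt
Ndufb6: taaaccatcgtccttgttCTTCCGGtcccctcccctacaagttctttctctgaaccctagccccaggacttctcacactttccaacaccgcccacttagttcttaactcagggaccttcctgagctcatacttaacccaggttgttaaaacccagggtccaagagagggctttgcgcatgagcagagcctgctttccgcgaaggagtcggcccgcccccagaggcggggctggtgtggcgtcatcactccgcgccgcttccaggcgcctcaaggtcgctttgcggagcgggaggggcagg
Atp5k: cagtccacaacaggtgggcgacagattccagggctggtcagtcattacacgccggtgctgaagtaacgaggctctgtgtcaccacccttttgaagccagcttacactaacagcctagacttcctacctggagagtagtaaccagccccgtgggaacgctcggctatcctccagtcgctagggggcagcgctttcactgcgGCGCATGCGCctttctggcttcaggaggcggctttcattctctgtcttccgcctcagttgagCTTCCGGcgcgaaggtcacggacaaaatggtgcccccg

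Of the nuclear members, 95 gene names were looked up and 75 had a promoter in that table, which holds 27025 promoters. The NRF1 site stood in 18 of the 75 (24%) against 4.78% of all promoters, the ETS letters in 18 (24%) against 9.12%, and the YY1 letters AAGATGGCG in 7 (9.33%) against 1.49%. All motifs were searched on both strands, and no overlap between different motifs was excluded. These matches describe the windows and are not sites of measured binding.

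The mitochondrial transcripts below turn up in the results because 1 library or 1 group set them apart. The first 3 are the neighbouring tRNA genes mt-Ti, mt-Tq and mt-Tm (isoleucine, glutamine and methionine) at chrM:3706-3774 (plus), chrM:3772-3842 (minus) and chrM:3845-3913 (plus) of mm10, where capitals mark the 3 bases that mt-Ti and mt-Tq share on opposite strands. mt-Nd3 (first 60 bases, chrM:9459-9518, plus) is the mitochondrial member that was called higher. Its capital marks the single position at which it differs from its nuclear copy Gm28438 over 345 compared bases, T3C, counted from 1 at the first base of mt-Nd3. mt-Atp8 (chrM:7766-7969, plus) and mt-Nd4l (chrM:9877-10173, plus) were the lowest of the set in 1 MTP+CR library, relative to the other MTP+CR livers, and capitals mark the bases they share with mt-Atp6 and mt-Nd4.
mt-Ti: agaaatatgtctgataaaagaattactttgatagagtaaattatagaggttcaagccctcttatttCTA
mt-Tq: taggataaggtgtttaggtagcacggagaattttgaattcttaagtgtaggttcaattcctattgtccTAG
mt-Tm: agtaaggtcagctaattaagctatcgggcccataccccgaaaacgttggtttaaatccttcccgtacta
mt-Nd3: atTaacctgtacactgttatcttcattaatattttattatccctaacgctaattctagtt
mt-Atp8: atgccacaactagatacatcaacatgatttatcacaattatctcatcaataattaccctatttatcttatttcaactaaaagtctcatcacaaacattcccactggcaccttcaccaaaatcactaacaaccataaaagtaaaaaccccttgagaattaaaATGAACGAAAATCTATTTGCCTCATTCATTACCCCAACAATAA
mt-Nd4l: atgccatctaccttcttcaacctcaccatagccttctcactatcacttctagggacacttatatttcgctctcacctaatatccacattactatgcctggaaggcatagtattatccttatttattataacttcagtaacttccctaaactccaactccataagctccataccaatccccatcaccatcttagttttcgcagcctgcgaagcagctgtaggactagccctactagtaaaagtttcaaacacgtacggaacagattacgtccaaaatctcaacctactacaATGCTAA

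The libraries held 15509226 to 18430566 counts each. Counts are given below as CPM, counts relative to the library size after TMM scaling, and fold changes as log2 values with their SE from edgeR's quasi-likelihood test over all 12 libraries and 15197 genes with enough counts, among them 103 members (13 mitochondrial and 90 nuclear). A gene was called at a Benjamini-Hochberg adjusted p under 0.05 with a fold change above 1.5. TMM factors were 0.824 to 0.990 in MTP+CR, 1.07 to 1.52 in MTP and 0.836 to 0.952 in Control livers. Hepatocyte markers were abundant in every library, with summed levels of 84535 to 127355 CPM in MTP+CR, 38209 to 65998 CPM in MTP and 106643 to 177485 CPM in Control livers, and 6 of 12 rose in MTP+CR against MTP livers and 3 of 12 fell in MTP against Control livers. Endothelial markers summed to 163 to 230 CPM in MTP+CR, 427 to 554 CPM in MTP and 500 to 617 CPM in Control livers. Of these markers 7 of 10 fell in MTP+CR against MTP and 6 of 10 in MTP+CR against Control livers. Neutrophil markers summed to 10.8 to 61.0 CPM in MTP+CR, 22.3 to 540.0 CPM in MTP and 12.1 to 139.9 CPM in Control livers, with 2 of 9 lower in MTP+CR against MTP livers (median log2 fold change −2.93) and 2 of 9 higher in MTP against Control livers. Of all genes tested, 5.94% rose and 6.51% fell in MTP+CR against MTP livers. In MTP against Control livers 2.61% rose and 2.78% fell, and in MTP+CR against Control livers 1.00% fell. The part of these marker differences in the results below was not tested, and in whole liver more RNA per cell and more cells of a type cannot be told apart. Across genes, the rank correlation between gene length and a gene's deviation from its mean over all libraries was −0.388 to −0.0574 in MTP+CR livers, −0.124 in MTP 4 against 0.156 to 0.195 in the other MTP livers, and 0.0335 to 0.196 in Control livers. MTP 4 thus stood apart from its group, and MTP+CR 4, which had the lowest value, stood apart in its mitochondrial genes as described further on.

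In every liver the 13 mitochondrial members took more counts than all nuclear members together, and the nuclear share of raw counts was higher in each treated liver than in any Control liver, while with TMM scaling 3 of 4 MTP livers lay below every Control liver. The mitochondrial share overlapped between groups. The 13 mitochondrial genes held 8.44%, 7.70%, 6.13% and 3.93% of all counts in MTP+CR livers (6.55% ± 1.99, SD, n = 4), 6.94%, 7.58%, 9.06% and 5.20% in MTP livers (7.20% ± 1.6) and 7.12%, 4.94%, 7.88% and 7.28% in Control livers (6.81% ± 1.29). The groups overlapped, and MTP+CR 4 was the lowest of all. With the copies on chromosome 1 described further on counted in, MTP+CR 4 held 6.33%, close to Control 2 (6.39%) and MTP 4 (6.71%). The nuclear members held 1.25%, 0.975%, 0.971% and 1.57% in MTP+CR livers (1.19% ± 0.283), 0.876%, 0.892%, 0.814% and 1.16% in MTP livers (0.934% ± 0.151) and 0.761%, 0.718%, 0.713% and 0.738% in Control livers (0.733% ± 0.0216). Here MTP 4 was the one MTP liver inside the MTP+CR range, and the Control livers lay closest together. After TMM scaling the nuclear members summed to 14359, 9851, 11227 and 19036 CPM in MTP+CR livers, 5778, 7769, 6217 and 10772 CPM in MTP livers and 7988, 7887, 8528 and 7998 CPM in Control livers, so that MTP livers lay on the other side of Control livers except for MTP 4. Mitochondrial counts per nuclear count were 6.77, 7.90, 6.32 and 2.51 in MTP+CR livers (5.88 ± 2.34), 7.92, 8.5, 11.1 and 4.50 in MTP livers (8.01 ± 2.73) and 9.36, 6.88, 11.1 and 9.86 in Control livers (9.29 ± 1.76). The number-4 mouse was lowest in both treated groups, and the mean log2 ratio differed by −0.50 between MTP+CR and MTP livers, by −0.76 between MTP+CR and Control livers and by −0.26 between MTP and Control livers. Without the number-4 livers of both treated groups these differences were −0.38, −0.39 and −0.01. With near-identical copies summed, the log2 ratio of MTP+CR 4 was 1.90 instead of 1.33, still the lowest of all libraries.

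**Figure D1:**
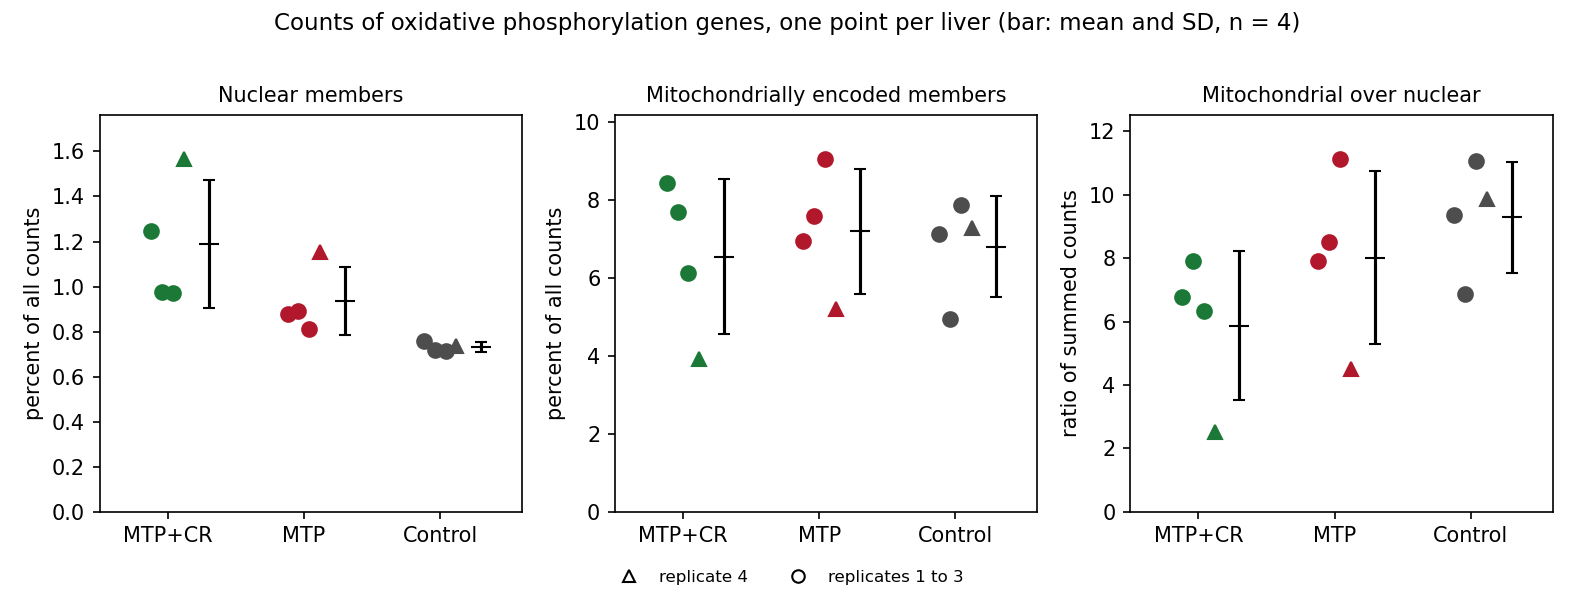
Share of all counts held by the 13 mitochondrial members, by the 96 nuclear members, and counts of the first per count of the second, with 1 point per liver and group means, where triangles mark replicate 4. The Control points of the nuclear share lie together at 0.713% to 0.761%, and replicate 4 has the lowest ratio in MTP+CR (2.51) and MTP (4.50) livers.

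MTP+CR against MTP livers addresses what crocin adds to triptolide, and 34 of 90 nuclear members were called higher with crocin, a count that was 0 without any one of MTP 1, MTP 3 and MTP+CR 1. Of 103 members tested, 35 rose and 0 fell by edgeR's quasi-likelihood test (71 higher and 0 lower at an unadjusted p under 0.05, which 33.9% of all genes reached in either direction), where 5.94% of all genes tested rose and 6.51% fell. The 35 were 34 of 90 nuclear members and 1 of 13 mitochondrial ones, and 98 of 103 fitted fold changes were positive, where 48.5% of all genes tested had a positive one. The median log2 fold change was 0.97 for nuclear members, 0.30 for mitochondrial members and −0.03 for all genes tested. Scaled by total counts these medians were 0.49, −0.19 and −0.54, so the mitochondrial one turned its sign but stayed above that of all genes, and 12 members rose where 2.72% of all genes rose and 27.1% fell. With log2(FPKM + 1) they were 0.42, −0.27 and −0.25. The groups did not overlap for 13 members, all higher in MTP+CR livers, where 6.92% of all genes tested were higher and 7.99% lower without overlap. The count of 35 moved with every library that was left out, as did the share of all genes called higher. It was 0 without MTP 1, MTP 3 or MTP+CR 1 (0.739%, 0.565% and 1.03% of all genes higher), 1 without MTP+CR 4, 5 when MTP 2 was omitted, 17 when MTP+CR 3 was, 18, 21, 19 and 20 without Control 1, 2, 3 and 4, 54 on omitting MTP+CR 2 and 65 on omitting MTP 4. The share of all genes higher was 1.63% without MTP+CR 4, 1.97% without MTP 2, 2.69% without MTP+CR 3, 3.59% to 4.24% without a Control library, 7.31% without MTP+CR 2 and 14.1% without MTP 4. Without both number-4 libraries the count was 58, where 11.8% of all genes rose, an alternative chosen after seeing the data. The nuclear median stayed between 0.74 and 1.25 over the 12 fits with 1 library left out. Fitted on these 2 groups alone, 0 members were called (0.843% of all genes higher), with 66 higher at an unadjusted p under 0.05, and DESeq2 called 57 (9.95%).

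**Figure D2:**
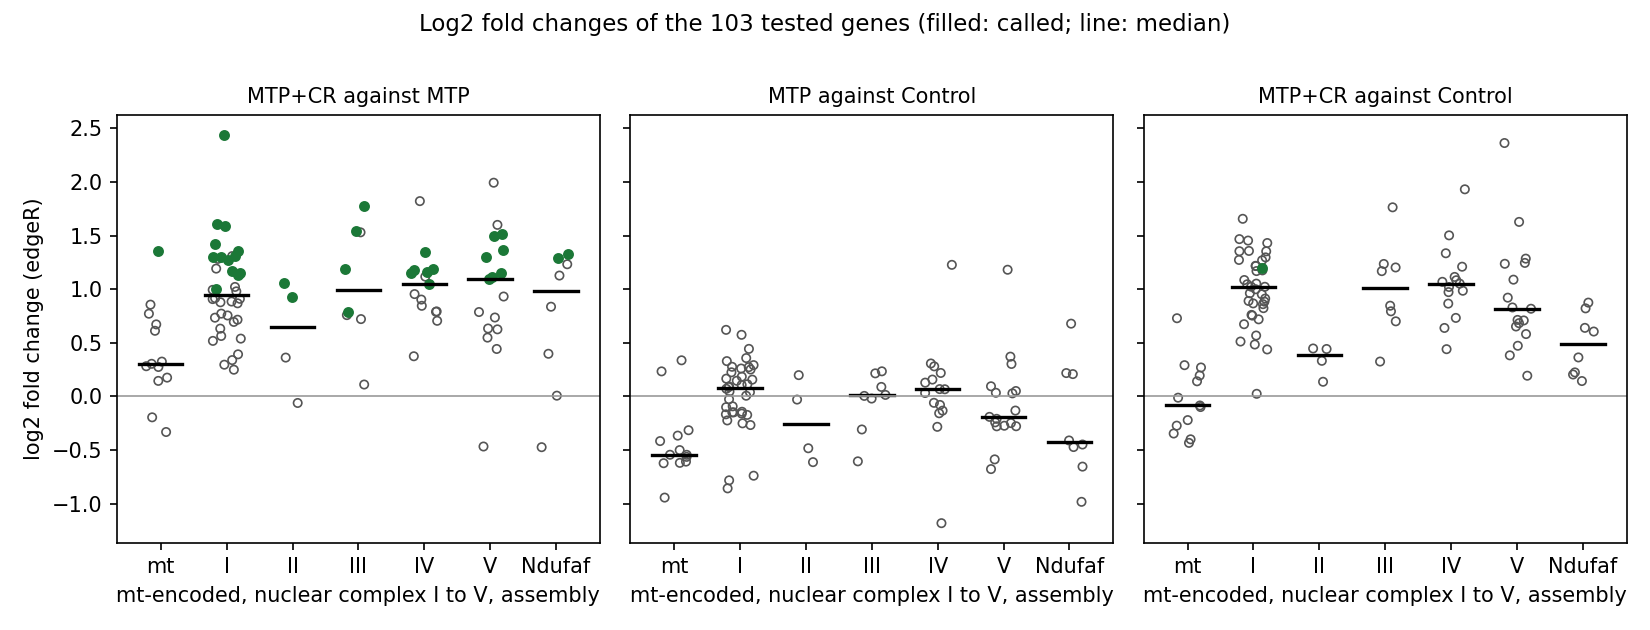
log2 fold changes of the 103 tested members by class (mitochondrial genes, nuclear subunits of complexes I to V, Ndufaf assembly factors) in the 3 comparisons, with 1 point per gene, filled where called. Nuclear points lie mostly above 0 in MTP+CR against MTP (median 0.97) and all above 0 in MTP+CR against Control (median 0.92), while they lie on both sides of 0 in MTP against Control (median 0.02).

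Every complex had called members. Nuclear subunits of complex I, which takes electrons from NADH, had 13 of 38 called with a median log2 fold change of 0.95. Complex II had 2 of 4 (median 0.64), complex III 4 of 8 (0.99), complex IV 6 of 15 with Ndufa4 and Ndufa4l2 counted here (1.05), and complex V 7 of 17 (1.10). Among the complex I assembly factors 2 of 8 rose, Ndufaf2 (1.32) and Ndufaf3 (1.29), with a median of 0.98. The 8 nuclear members with the smallest adjusted p came from complexes I, III and V.

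In complex III, Uqcrq, a small subunit near the coenzyme Q site, had 486, 197, 277 and 600.1 CPM in MTP+CR livers, against 62.2, 120.1, 104 and 170.3 CPM in MTP livers (176, 226, 152 and 141 CPM in Control livers). All MTP+CR livers lay above all MTP livers, with the lowest MTP+CR value inside the Control range. The log2 fold change was 1.77 ± 0.38 (edgeR, adjusted p = 0.0189), and the adjusted p was 0.0534, 0.0628 and 0.0511 without MTP 1, MTP 3 and MTP+CR 1. The gene lies at chr11:53427922-53430831 on the minus strand. The nuclear complex III member with the highest level per length, Uqcrfs1, the Rieske iron-sulfur protein, had 203 ± 45.4 FPKM in MTP+CR, 168 ± 26.9 FPKM in MTP and 117 ± 11.7 FPKM in Control livers (SD, n = 4), with a log2 fold change of 0.76 between MTP+CR and MTP livers and an edgeR adjusted p of 0.0664. FPKM carry no TMM factor, so their ratios can differ from the fitted fold changes.

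In complex V, Atp5md, which holds ATP synthase dimers together and whose promoter is printed above, had 91.5, 38.6, 60.4 and 107 CPM in MTP+CR livers, against 22.4, 27.3, 23.6 and 42.1 CPM in MTP livers (37.6, 34.0, 25.9 and 28.8 CPM in Control livers). MTP+CR 2 lay below MTP 4, and the others were apart (1.37 ± 0.31, edgeR adjusted p = 0.0230). Atp5d, the delta subunit of the F1 stalk, had 291, 166, 224 and 468 CPM in MTP+CR livers, against 73.9, 73.8, 88.8 and 171 CPM in MTP livers (143, 135, 99.4 and 93.7 CPM in Control livers). MTP 4 was again the only one inside the MTP+CR range (1.49 ± 0.36, edgeR adjusted p = 0.0273). Atp5c1, the rotating gamma subunit, had 272, 234, 257 and 456 CPM in MTP+CR livers, against 93.3, 146, 107 and 204 CPM in MTP livers (208, 192, 245 and 235 CPM in Control livers). MTP+CR and MTP livers did not overlap, while MTP 4 and MTP+CR 2 both lay inside the Control range (1.15 ± 0.29, edgeR adjusted p = 0.0303). The catalytic alpha subunit Atp5a1, highest of the nuclear members of its complex per length, had 154 ± 19.1 FPKM in MTP+CR, 138 ± 17.5 FPKM in MTP and 121 ± 7.14 FPKM in Control livers, and a log2 fold change of 0.62 with an edgeR adjusted p of 0.0993.

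In complex I, Ndufb2, an accessory subunit of the membrane arm, had 56.9, 22.1, 39.8 and 72.5 CPM in MTP+CR livers, against 10.2, 17.1, 10.8 and 24.8 CPM in MTP livers (22.2, 28.3, 33.2 and 21.1 CPM in Control livers). MTP+CR 2 and MTP 4 crossed, and 3 of 4 MTP livers were below every Control liver (1.61 ± 0.37, edgeR adjusted p = 0.0238). Ndufs8, a core subunit that binds iron-sulfur clusters, had 80.3, 43.4, 51.8 and 85.4 CPM in MTP+CR livers, against 18.6, 30.8, 18.7 and 38.2 CPM in MTP livers (41.4, 47.3, 67.5 and 36.5 CPM in Control livers). The groups did not overlap (1.30 ± 0.31, edgeR adjusted p = 0.0274), and MTP 4 was the one MTP liver inside the Control range. Ndufa6, an accessory subunit of the LYR family, had 211, 102, 110.0 and 186 CPM in MTP+CR livers, against 41.1, 73.4, 58.2 and 102 CPM in MTP livers, with MTP+CR 2 and MTP 4 level to 3 digits (1.15 ± 0.30, edgeR adjusted p = 0.0328). Ndufs6b, annotated as a processed pseudogene, rose at a low level, with 2.65 to 7.90 CPM in MTP+CR livers against 1.15 to 2.69 CPM in MTP livers (1.59 ± 0.42, edgeR adjusted p = 0.0320). Ndufb9, the nuclear complex I subunit with the highest level per length, was called (1.17, edgeR adjusted p = 0.0455), and Ndufaf1, the highest assembly factor, was not (0.40, edgeR adjusted p = 0.442). The call of Ndufb9 was lost in 10 of the 12 fits with 1 library left out.

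These calls needed particular libraries. Without any one of MTP 1, MTP 3 and MTP+CR 1 no member was called, and without MTP+CR 4 Uqcrq was the only one of the 8 that was still called. The log2 fold changes of the 8 stayed positive in all these fits. Ndufa12, an accessory subunit of complex I that is named here after its values were seen, had the largest called fold change, 2.44 ± 0.67 (edgeR adjusted p = 0.0365). It had 30.9, 8.08, 11.6 and 21.5 CPM in MTP+CR livers, against 1.6, 0.779, 1.75 and 9.19 CPM in MTP livers (6.21, 7.81, 2.76 and 6.03 CPM in Control livers). MTP 4 again reached the MTP+CR range. Summed with its near-identical copy Ndufa12-ps, which held 6482 counts where Ndufa12 held 1655, the log2 fold change was 1.29 and the edgeR adjusted p 0.0418.

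**Figure D3:**
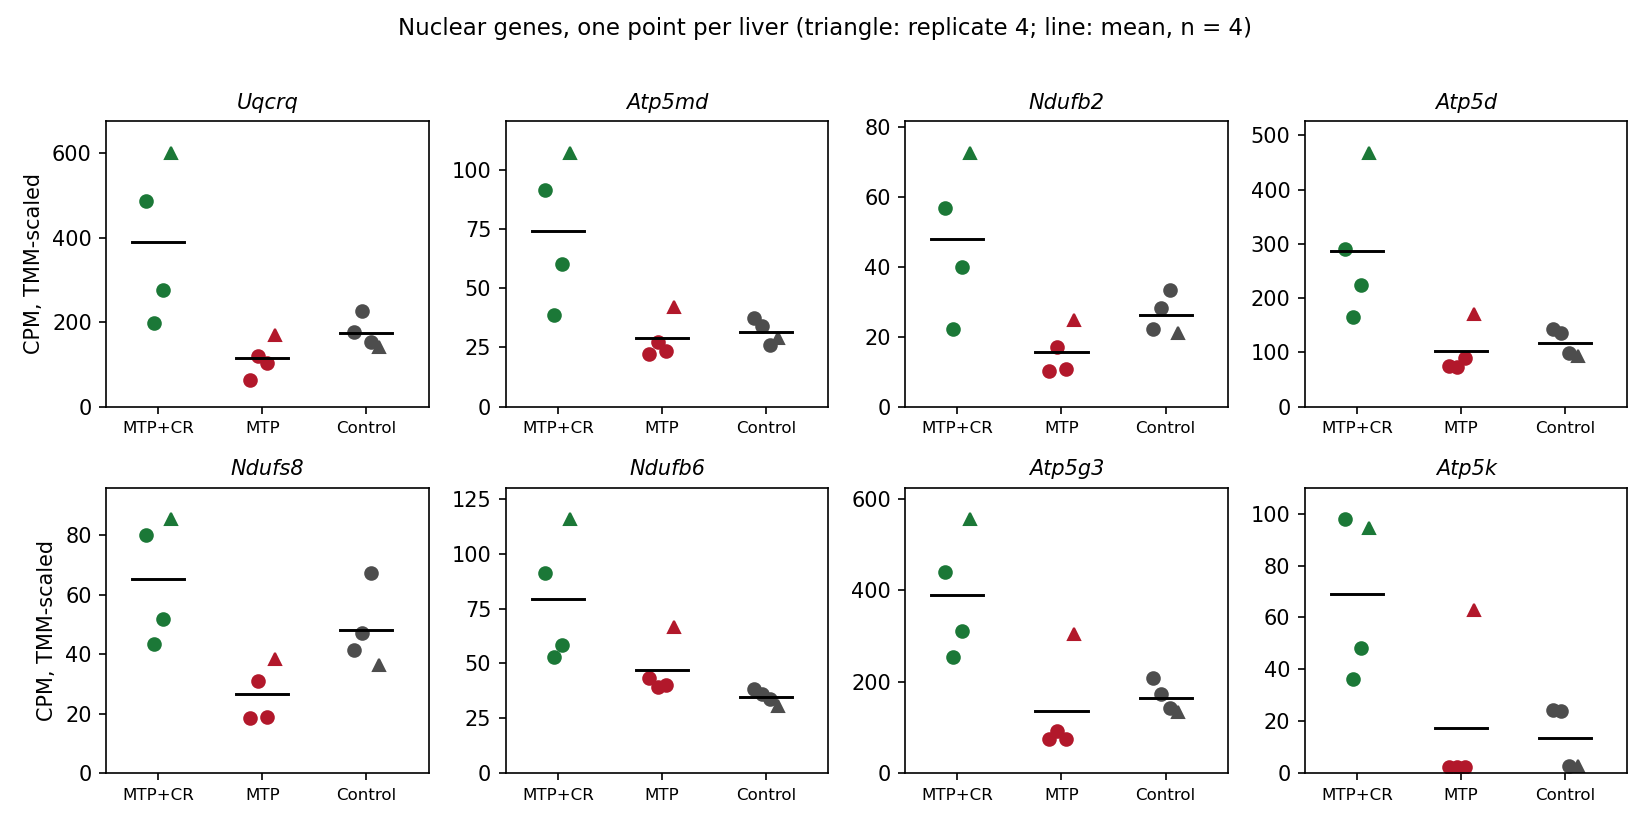
CPM of 8 nuclear members by group, 1 point per liver with the group mean as a line, where triangles mark replicate 4. In MTP livers replicate 4 is the highest point of each panel, as for Atp5k at 62.8 CPM against 2.13 to 2.44 CPM in the other MTP livers.

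Complex II, succinate dehydrogenase, was split. The iron-sulfur subunit Sdhb had 237, 135, 184 and 304 CPM in MTP+CR livers, against 74.3, 99.1, 85.9 and 154 CPM in MTP livers (150.2, 142, 174 and 166 CPM in Control livers), and the membrane anchor Sdhd 249, 144, 222 and 230.4 CPM, against 75.6, 109, 95 and 166 CPM (166, 163, 146 and 148 CPM in Control livers). Both rose, with MTP+CR 2 below MTP 4 in each, by log2 fold changes of 1.06 (edgeR adjusted p = 0.0346) and 0.93 (0.0384), and these calls were lost in 6 and 10 of the 12 fits with 1 library left out. The flavoprotein Sdha, which oxidises succinate, had 318, 509, 436 and 454 CPM in MTP+CR livers, against 337, 549, 378 and 528 CPM in MTP livers, so that the groups covered the same range (−0.06, edgeR adjusted p = 0.883). The other anchor Sdhc had a log2 fold change of 0.36 (edgeR adjusted p = 0.228). The differences between these subunits were not tested.

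Where a subunit has several genes, the liver used mainly one. Cox6a1, the form of cytochrome c oxidase subunit 6A outside muscle and heart and the nuclear complex IV member with the highest FPKM, rose by 1.05 (edgeR adjusted p = 0.0362), while the muscle form Cox6a2 had at most 4 counts in a library. Cox6b1 (1.34) and Cox7a2 (1.18) rose too, while Cox6b2, known from testis, stayed at or under 1.92 CPM and the muscle form Cox7a1 at or under 5 counts. Calls of Cox6a1, Cox6b1 and Cox7a2 were lost in 8, 10 and 8 of the 12 fits with 1 library left out. Cox4i1 (0.84, edgeR adjusted p = 0.0745), Cox8a (0.95, 0.0570), Ndufa4 (0.79, 0.0580) and Cox7a2l (0.37, 0.384), a factor of supercomplex assembly, were not called, and Cox4i2 and Cox8b had at most 11 and 1 counts. Ndufa4l2, a paralog of Ndufa4 that responds to hypoxia, had 0.0819 to 0.914 CPM in MTP livers and 0.969 to 2.94 CPM in MTP+CR livers. The MTP livers held only 2, 3, 12 and 17 counts of it, and it was not called (1.82, edgeR adjusted p = 0.0873).

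The c ring of ATP synthase is built from 1 mature protein that 3 genes encode, and these genes differed. Atp5g3, the most expressed, had 440.1, 254, 309.9 and 555 CPM in MTP+CR livers, against 73.6, 91.6, 74.8 and 304 CPM in MTP livers (209, 173, 142 and 134 CPM in Control livers). MTP 4 lay above MTP+CR 2 and the remaining MTP livers were below all Control livers (1.52 ± 0.45, edgeR adjusted p = 0.0437). Atp5g1 rose by 1.30 (edgeR adjusted p = 0.0329). Calls of Atp5g3 and Atp5g1 were lost in 10 and 5 of the 12 fits with 1 library left out. Atp5g2 had 2.98, 2.41, 1.94 and 3.16 CPM in MTP+CR livers, against 3.93, 3.06, 4.75 and 2.74 CPM in MTP livers (1.20, 2.67, 1.06 and 1.46 CPM in Control livers), which overlapped (−0.47, edgeR adjusted p = 0.355).

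Atp5k, the e subunit of the membrane part of ATP synthase, was chosen after its values were seen. It had 97.9, 36.2, 48.0 and 94.6 CPM in MTP+CR livers, against 2.13, 2.34, 2.44 and 62.8 CPM in MTP livers and 24.4, 24, 2.76 and 2.57 CPM in Control livers. In counts these were 1379, 556, 744 and 1318 in MTP+CR livers, 52, 42, 57 and 1168 in MTP livers and 428, 359, 39 and 37 in Control livers. Levels fell into a low set of 3 MTP and 2 Control livers and a high set of all MTP+CR livers, 2 Control livers and MTP 4, so that the spread within groups was as large as the difference and no call was made (1.99 ± 1.08, edgeR adjusted p = 0.209). The gene lies at chr5:108433244-108434448 on the minus strand, and its window is the only one of those printed with both an NRF1 and an ETS match.

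Some members share sequence with other annotated genes, which the counting could split. By BLAST, 33 of 109 members had a copy elsewhere of at least 95% identity over at least 100 bases and 50% of the copy, and for 12 the copies held more counts than the member. Cox7c held 2255 counts over all libraries and its copies 28057, Atp5l 1634 against 27717, and Atp5g1 9572 against 18108 for Gm10039. Atp5md, described above, held 8634 counts and its copies 9110, so its CPM may not be its full level. With copies added to their member, an alternative chosen after seeing the data, 37 members rose, 34 of them among the 35, with Uqcrb lost and Atp5l, Cox5b and Ndufs5 gained. Of all genes 5.95% rose in that setting.

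Gene length moved with this comparison as well. Lengths were those implied by the deposited counts, FPKM and library totals. Tested nuclear members had a median length of 2671 bases, against 5674 for all genes tested and 784 for mitochondrial members. In MTP+CR against MTP livers, nuclear members up to 1500 bases had a median log2 fold change of 1.11 (all genes of that length 0.37) with 12 of 24 called, those of 1500 to 3000 bases 1.08 (0.28) with 12 of 32, and longer ones 0.75 (−0.12) with 10 of 34. Of all genes in these length classes, 8.94%, 9.93% and 4.77% rose, in that order. In each length class the members' median was above that of all genes. With the trend on length removed in each library, the nuclear median was 0.76, the mitochondrial median 0.01, and 21 members were called, where 5.04% of all genes rose. The part of length in the result was not tested beyond this.

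Triptolide alone, MTP against Control livers, gave no called member. Of the 103 members 0 rose and 0 fell by edgeR's quasi-likelihood test, where 2.61% of all genes tested rose and 2.78% fell (5.40% in either direction). At an unadjusted p under 0.05, 2 were higher and 4 lower, where 22.8% of all genes reached that p, and DESeq2 called 1 higher, where 5.03% of all genes were. The median log2 fold change was 0.02 for nuclear and −0.54 for mitochondrial members, against 0.02 for all genes. The mitochondrial genes were lower in 11 of 13 fitted values, the exceptions being mt-Nd5 and mt-Nd6. The smallest adjusted p belonged to Atp5g2 (1.18 ± 0.35, edgeR adjusted p = 0.0687), whose MTP livers lay above all Control livers. Ndufa8, Ndufb4 and Ndufb6 were also higher without overlap, 4 of 103 in all, where 6.96% of all genes tested were. Without overlap 0 members were lower, where 7.71% of all genes were. Ndufb4 held 787 counts over all libraries, against 6926 for its copy Ndufb4c, identical over 390 aligned bases.

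The count of called members in this comparison changed most without MTP 4, when more of all genes were called too. Without MTP 4, 1 of 103 members rose (Atp5g2, 1.27) and 10 fell, all nuclear. Of all genes 5.93% then rose and 7.01% fell, so the count of members that fell was not far above that share. The nuclear median was −0.34, against −0.02 for all genes. The 10, named after their values were seen, were Atp5k (−2.57), Ndufa12 (−2.06), Ndufaf8 (−1.27), Ndufaf3 (−1.13), Ndufs8 (−1.11), Atp5g3 (−1.06), Ndufaf2 (−0.98), Atp5c1 (−0.96), Sdhb (−0.89) and Sdhd (−0.76). They belong to complexes I, II and V, with 3 assembly factors of complex I among them. With Control 2 left out instead, 1 member rose (1.49% of all genes did), and with any of the other 10 libraries left out, 0.

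MTP+CR against Control livers asks how far both drugs together differ from saline. Only Ndufb6, an accessory subunit of the complex I membrane arm, was called, where 0.329% of all genes tested rose and 1.00% fell. It had 91.4, 52.8, 58.6 and 116 CPM in MTP+CR livers, against 38.4, 35.9, 33.9 and 30.8 CPM in Control livers (43.2, 39.0, 40.2 and 66.5 CPM in MTP livers). Every MTP+CR liver lay above every Control liver, and MTP livers lay above Control livers too (1.20 ± 0.27, edgeR adjusted p = 0.0489). The gene lies at chr4:40270591-40279421 on the minus strand.

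All 90 tested nuclear members had a positive fold change against Control, where 49.1% of all genes tested had one, with a median log2 fold change of 0.92, against −0.02 for all genes tested and −0.09 for mitochondrial members. In 51 of the 90 every MTP+CR liver lay above every Control liver, where 7.37% of all genes tested were higher and 8.15% lower without overlap, and 0 of 13 mitochondrial genes did. At an unadjusted p under 0.05, 67 nuclear members and 1 mitochondrial member were higher and 0 lower. Of all 15197 genes tested, 3336 reached that p in either direction. DESeq2 called 33 members, where 3.22% of all genes were higher. The call of Ndufb6 was lost without any one of 10 libraries, while 14 members were called without MTP 4 (0.799% of all genes higher) and 11 without MTP+CR 2 (1.03%). The complexes had like medians, 1.02 for complex I, 1.01 for complex III, 1.05 for complex IV and 0.82 for complex V, while complex II (0.39) and the assembly factors (0.48) were lower. These class differences were not tested. MTP+CR livers enter this comparison and the one against MTP, so the counts of the 2 comparisons are not independent.

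For 11 of 13 mitochondrial members the groups overlapped in all 3 comparisons. mt-Co1, the catalytic subunit of complex IV and the highest of the 13 per length (16618 FPKM on average), had 33061, 29050.5, 26235 and 18624 CPM in MTP+CR livers, against 16902, 27199, 27130.4 and 16813 CPM in MTP livers and 27776, 21276, 35318 and 29128 CPM in Control livers. The 3 groups overlapped (0.28 ± 0.35 for MTP+CR against MTP, edgeR adjusted p = 0.593). mt-Nd6, a complex I subunit and the only protein gene on the light strand, had 1234, 1541, 1104 and 1691 CPM in MTP+CR livers, against 1278, 1850.4, 2009.8 and 1241 CPM in MTP livers and 846, 899.6, 1626 and 1682 CPM in Control livers, likewise overlapping. Its log2 fold changes were −0.20 between MTP+CR and MTP livers, 0.34 between MTP and Control livers and 0.14 between MTP+CR and Control livers, none called. Whether the counting used strand is not given in the sources used here, so reads from its antisense partner cannot be told apart.

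mt-Nd3, a core subunit of complex I and the lowest of the 13 per length (908 FPKM on average), was the one that rose. It had 729, 337, 313 and 611 CPM in MTP+CR livers, against 158, 208, 187 and 226 CPM in MTP livers (273, 221, 343 and 365 CPM in Control livers). MTP+CR and MTP livers did not overlap, and Control livers overlapped with both (1.35 ± 0.31, edgeR adjusted p = 0.0230). The call was lost without MTP 1, MTP 3, MTP+CR 1 or MTP+CR 4, where the edgeR adjusted p was 0.0686, 0.0698, 0.0627 and 0.0512. mt-Co3, a core subunit of complex IV, was also apart, at 6164, 4423, 4222 and 7151 CPM in MTP+CR livers, against 2337, 4037, 3111 and 2655 CPM in MTP livers (0.86 ± 0.31), without passing the test (edgeR adjusted p = 0.0773).

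**Figure D4:**
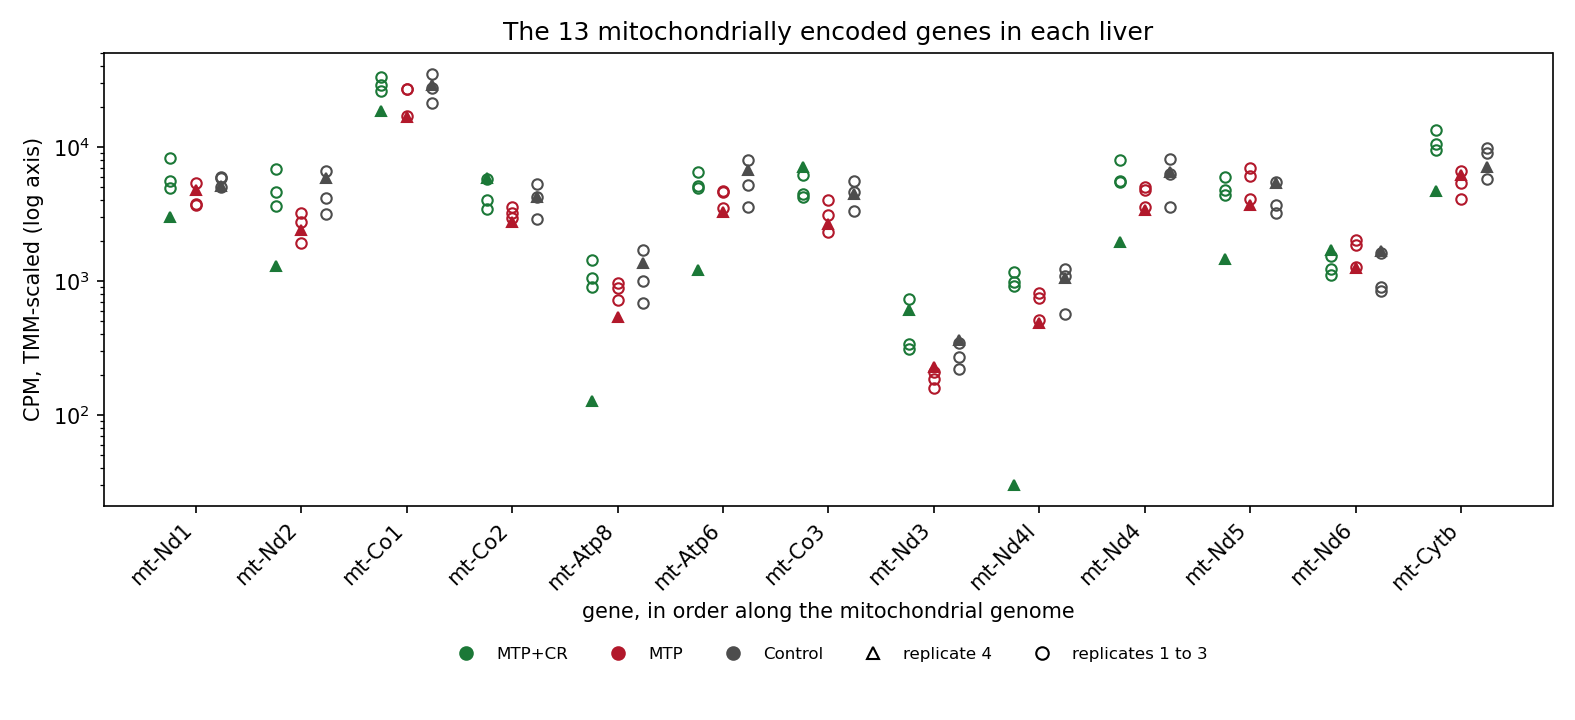
CPM of the mitochondrial members in each liver by group, on a log axis, where triangles mark replicate 4. MTP+CR replicate 4 is far below the other MTP+CR livers for mt-Nd4l (30.0 against 916 to 1171 CPM) and mt-Atp8 (127 against 901 to 1436 CPM), and above them for mt-Co3.

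MTP+CR 4 had a mitochondrial profile of its own. Relative to the median of the other 3 MTP+CR livers, its level was 0.031 times for mt-Nd4l, 0.12 times for mt-Atp8, 0.24 times for mt-Atp6, 0.28 times for mt-Nd2, 0.30 times for mt-Nd5 and 0.35 times for mt-Nd4. In the same library mt-Nd6 was at 1.37 times, mt-Co2 at 1.45 times, mt-Co3 at 1.62 times and mt-Nd3 at 1.81 times. In counts mt-Nd4l, printed above, had 16497, 14982, 14192 and 418 in the 4 MTP+CR livers. mt-Co2 and mt-Co3 took 12.3% and 15% of its mitochondrial counts, against 4.83% to 6.45% and 4.49% to 6.34% in the other 11 libraries. mt-Co2 and mt-Atp8, and likewise mt-Nd3 and mt-Nd4l, are neighbours with only a tRNA gene between them, and they stood on opposite sides of the other MTP+CR livers.

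A stretch of mouse chromosome 1 (chr1:24611535-24616197, minus strand) carries annotated copies of 7 mitochondrial genes, and counts were assigned to both places. In 11 libraries the copy Gm10925 had 1.01 to 1.14 times the counts of mt-Atp6, Gm28438 1.05 to 1.19 times those of mt-Nd3 and Gm10222 0.987 to 1.05 times those of mt-Nd4l. In MTP+CR 4 the first of these was 4.16 times, while the others were 1.08 times and 0.990 times. Gm29216 had 0.527 times the counts of mt-Co1 in that library, against 0.141 to 0.202 times elsewhere, and Gm28439 0.0912 times those of mt-Nd4, against 0.349 to 0.598 times. With copies added, the mitochondrial median in MTP+CR against MTP was 0.30 and the log2 fold change of mt-Nd3 was 1.33.

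Mitochondrial tRNA and rRNA genes share the long precursors with the members. Of 19 tested, 7 rose and 0 fell in MTP+CR against MTP livers (5.94% of all genes rose), 0 rose and 2 fell in MTP against Control livers (2.78% of all genes fell), and 0 were called in MTP+CR against Control livers. mt-Ti had 311, 70, 165 and 244 counts in MTP+CR livers, against 6, 25, 11 and 30 counts in MTP livers and 194, 77, 235 and 282 counts in Control livers. All MTP livers lay below all others (3.90 between MTP+CR and MTP livers, edgeR adjusted p = 0.00757, and −3.84 between MTP and Control livers, edgeR adjusted p = 0.00784), and both calls were made in each of the 12 fits with 1 library left out. mt-Tq, on the opposite strand over the same 3 bases, had 40, 14, 15 and 5 counts in MTP+CR livers, against 3, 9, 2 and 5 counts in MTP livers and 21, 14, 34 and 21 counts in Control livers. It fell in MTP against Control livers without overlap (−2.62, edgeR adjusted p = 0.0428), a call that was lost in 8 of the 12 leave-one-out fits.

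mt-Tm, next to them and named after its values were seen, had 190, 102, 117 and 3 counts in MTP+CR livers, against 7, 22, 16 and 40 counts in MTP livers and 198, 100, 118 and 86 counts in Control livers. MTP+CR 4 was below all MTP livers while the other MTP+CR livers were above them (2.70, edgeR adjusted p = 0.0441). A light-strand cluster rose in MTP+CR against MTP livers: mt-Ta by 1.86 (edgeR adjusted p = 0.0107), mt-Ty by 1.37 (0.0137) and, named after their values were seen, mt-Tn by 1.67 (0.0146) and mt-Tc by 1.42 (0.0138). mt-Ta had 228, 138, 179 and 200 counts in MTP+CR livers, against 41, 63, 81 and 101 counts in MTP livers and 154, 123, 72 and 113 counts in Control livers, so MTP+CR and MTP livers did not overlap. The length of the fragments behind these counts is not given in the sources used here.

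**Figure D5:**
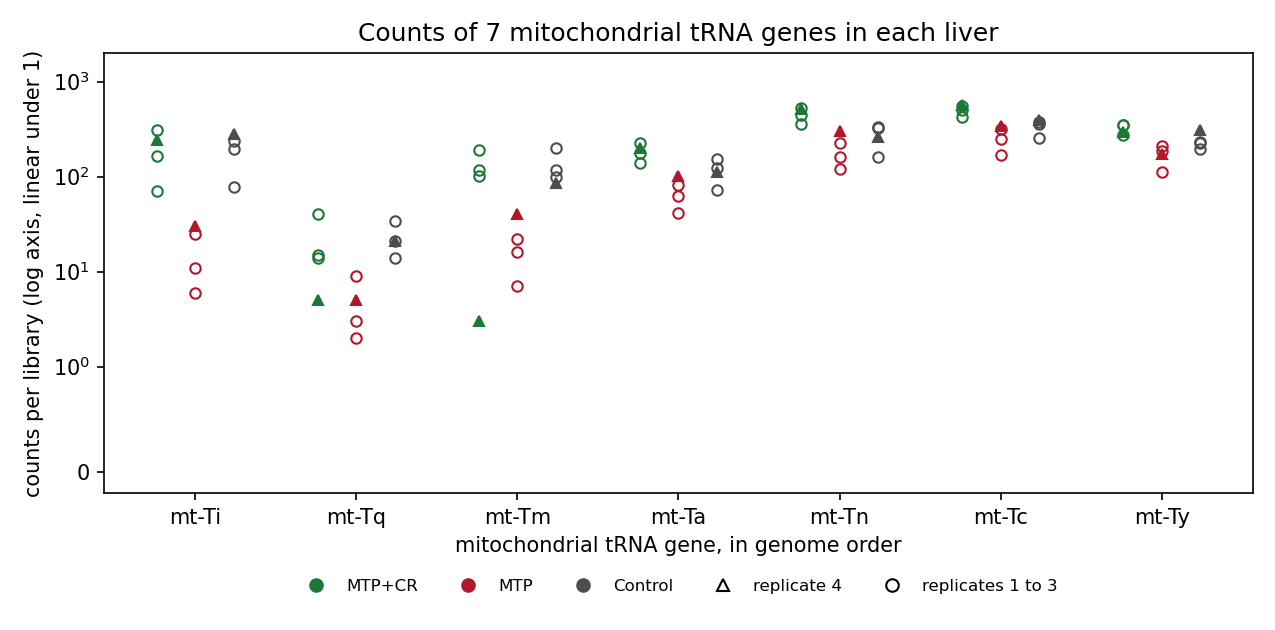
Counts of 7 mitochondrial tRNA genes in each liver by group on a log axis, where triangles mark replicate 4. All MTP livers lie at 6 to 30 counts for mt-Ti, below MTP+CR livers (70 to 311) and Control livers (77 to 282), and MTP+CR replicate 4 has 3 counts of mt-Tm.

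Other genes that build or feed the respiratory chain were described from lists, whose counts stand beside 5.94% of all genes higher and 6.51% lower in MTP+CR against MTP livers, 2.61% higher and 2.78% lower in MTP against Control livers and 0.329% higher in MTP+CR against Control livers. Genes listed for the mitochondrial ribosome had 15 of 79 higher and 0 lower in MTP+CR against MTP livers (median log2 fold change 0.59). Among the 15 were Mrps21 (1.73, edgeR adjusted p = 0.00770), Mrps36 (1.58) and Mrps28 (1.39). The list went by gene name, which does not show that every product is part of the ribosome. The calls of Mrps36 and Mrps28 were lost in 3 and 5 of 12 leave-one-out fits. In MTP against Control livers 4 of 79 rose, among them Mrpl17 (1.12, edgeR adjusted p = 0.0118), Mrps17 (1.17, lost in 1 of 12 leave-one-out fits) and Dap3 (1.00, lost in 7), and in MTP+CR against Control livers 0 were called. Assembly factors of complexes I, III, IV and V outside the Ndufaf family had 8 of 40 higher in MTP+CR against MTP livers (median 0.48), among them Cox16 (1.15, edgeR adjusted p = 0.0271), Uqcc2 (1.4) and Lyrm7 (1.91), the last 2 being factors of complex III. Calls of Cox16, Uqcc2 and Lyrm7 in that comparison were lost in 5, 5 and 6 of 12 leave-one-out fits. Lyrm7 was the one that fell in MTP against Control livers (−1.83, edgeR adjusted p = 0.0461, lost in 10 of 12 leave-one-out fits), and Cox17, a copper carrier of complex IV, was the one that rose in MTP+CR against Control livers (1.30, edgeR adjusted p = 0.0373, lost in 7).

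Of 16 genes for coenzyme Q and cytochrome c, the mobile carriers between complexes, 3 rose in MTP+CR against MTP livers: Coq10a (1.44, edgeR adjusted p = 0.0104), Coq7 (1.45) and Cycs (0.72), which encodes cytochrome c. In MTP against Control livers Coq3, a methyltransferase of coenzyme Q synthesis, rose (1.02, edgeR adjusted p = 0.0201) and Coq10a fell (−1.07, edgeR adjusted p = 0.0318). These calls of Coq3 and Coq10a were lost in 4 and 5 of 12 leave-one-out fits, and that of Coq7 in 5. Cycs rose in MTP+CR against Control livers (0.99, edgeR adjusted p = 0.0414), and both Cycs calls were lost in 10 of 12 leave-one-out fits. Of 20 genes for mitochondrial RNA processing and stability 3 rose in MTP+CR against MTP livers, Ptcd2 (0.91), Hsd17b10 (1.57) and Lrpprc (0.77), and 0 were called in the other comparisons. The calls of these 3 were lost in 4, 10 and 11 of 12 leave-one-out fits. Hsd17b10 is a part of mitochondrial RNase P, which cuts tRNAs from the precursor, and Lrpprc keeps mitochondrial mRNAs stable.

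Few genes of mitochondrial DNA upkeep, biogenesis control and the TCA cycle were called. Of 21 genes for mitochondrial DNA upkeep and transcription 1 fell in MTP+CR against MTP livers, Rrm2b, a p53-induced subunit of ribonucleotide reductase (−1.61, edgeR adjusted p = 0.0287, lost in 5 of 12 leave-one-out fits). Of 12 biogenesis regulators tested 0 were called in that comparison, and Pprc1, a coactivator related to PGC-1α, rose in MTP against Control livers (1.61, edgeR adjusted p = 0.0251, lost in 5 of 12 leave-one-out fits). Of 14 listed TCA cycle genes outside complex II, Mdh2 rose in MTP against Control livers (1.05, edgeR adjusted p = 0.0270). That call was lost in 6 of 12 leave-one-out fits. In the other comparisons 0 of the 14 were called. Suclg1 was nearest in MTP+CR against MTP livers (1.06, edgeR adjusted p = 0.0561).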

How the data were processed

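Liver RNA of 12 mice was sequenced from libraries of a SMARTER mRNA kit, 4 per group. The count values deposited by the authors are whole fragments per gene, obtained after trimming with Hisat2 and StringTie as the methods of the study state, while the labels name Bowtie 0.12.2 and mm10. The FPKM values deposited by the authors scale those counts to gene length and library total, with no TMM factor. Strandedness and the annotation release are not given in the sources used here and coordinates came from GENCODE vM21 on mm10.

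The analysis used edgeR 4.0.16 under R 4.3.3 (filterByExpr with a count minimum of 10 and a total of 15, TMM, a quasi-likelihood fit of 3 groups, Benjamini-Hochberg over 15197 genes). Called means a fold change above 1.5 with an adjusted p under 0.05. Totals were 15509226 to 18430566 counts per library. The steps were also run on simulated counts with the same dispersion for every gene and no library standing apart. That run therefore does not show how they behave with libraries such as MTP 4. Alternatives were DESeq2 1.42.0, limma 3.58.1 on log2(FPKM + 1) and log2(FPKM + 0.1), RLE factors, total counts, TMM without mitochondrial genes, other filters, only the compared groups, a replicate block, removal of a gene-length trend (lowess, span 0.3), each library left out, and, chosen after seeing the data, copies summed (BLAST 2.17.0) and both number-4 treated libraries left out.

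The members, the lists and the rule for naming genes were chosen with earlier results of these data known. Named in full are the highest, the lowest, the light-strand and the called mitochondrial genes, up to 8 called nuclear members per direction by adjusted p, the highest member per complex by FPKM, complex II, paired isoforms, and up to 3 called genes per list and comparison. Samples that share a number across groups come from different mice and were treated as unpaired.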

Additional observations from a re-analysis of the deposited data

Results flagged for a closer look

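In each group of 4 livers, 1 liver standing apart from the other 3 was looked for by Dixon's criterion at the 95% level. This was done for each named gene and for the shares, ratio and median deviations of the members per library. Of 189 such combinations 12 had a liver apart, all for genes. Pooled over the groups this is near the rate of about 1 in 20 that chance gives. Most of the 12 fell on MTP 4, so the pooled rate does not describe that liver. The genes were measured in the same livers, and Atp5k was chosen after its values were seen, so repeats of 1 liver are not independent results. In MTP livers the liver apart was MTP 4 each time. Its level was 171 CPM for Atp5d (73.8 to 88.8 CPM in the other MTP livers), 66.5 CPM for Ndufb6 (39.0 to 43.2), 304 CPM for Atp5g3 (73.6 to 91.6), 156 CPM for Cox6b1 (56.6 to 64.1) and 62.8 CPM for Atp5k (2.13 to 2.44). Outside the members it was 11.6 CPM for Uqcc2 (4.49 to 5.51), 62.6 CPM for Cycs (45.1 to 47.6) and 16 CPM for Mrps28 (6.97 to 7.87). In MTP+CR livers it was MTP+CR 4, with 456 CPM for Atp5c1 (234 to 272 CPM in the other MTP+CR livers), 72.6 CPM for Ndufaf1 (25.8 to 30.3) and 2.94 CPM for Ndufa4l2 (0.969 to 1.04). Among Control livers Cox8a had 146 CPM in Control 3 (118 to 123 CPM in the others).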

How the results depend on the processing

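Scaling by total counts moved the median of all genes tested by −0.51 in MTP+CR against MTP, 0.47 in MTP against Control and −0.03 in MTP+CR against Control (log2). Medians of mitochondrial and nuclear members were then −0.19 and 0.49 in MTP+CR against MTP and −0.057 and 0.46 in MTP against Control, with 12, 8 and 1 members called in MTP+CR against MTP, MTP against Control and MTP+CR against Control, where 2.72%, 17.1% and 0.250% of all genes rose. In that order, DESeq2 called 57, 1 and 33, no filter 18, 0 and 0 (1.85%, 1.06% and 0.0799% of all genes higher), the 2 compared groups alone 0, 0 and 0, log2(FPKM + 1) 16 (15 higher, 1 lower), 6 and 0 (2.88%, 11.9% and 0.132% of all genes higher), log2(FPKM + 0.1) 15, 6 and 1 (3.32%, 13.7% and 0.243%), removal of the length trend 21, 0 and 0, and both number-4 libraries left out 58, 16 (1 higher, 15 lower) and 1. In the same order, all genes higher were 9.95%, 5.03% and 3.22% with DESeq2 and 0.843%, 2.03% and 0.168% with the 2 compared groups alone. They were 5.04%, 3.09% and 0.290% with the length trend removed. Without both number-4 libraries they were 11.8%, 8.11% and 0.207%, and 1363 of 15436 genes were lower in MTP against Control. RLE factors, TMM without mitochondrial genes and the 1 CPM filter each gave 35, 0 and 1, and copies summed 37, 0 and 1. In these settings 5.95% to 6.53% of all genes rose in MTP+CR against MTP livers. Mitochondrial and nuclear medians with log2(FPKM + 1) were −0.27 and 0.42 in MTP+CR against MTP and −0.031 and 0.38 in MTP against Control; with log2(FPKM + 0.1) they were −0.27 and 0.45, and −0.031 and 0.42. The nuclear median of MTP against Control was −0.34 without both number-4 libraries.

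Signs that turned were the following. mt-Co1 had −0.21 (total counts and both FPKM settings) and −0.00601 (length trend removed) in MTP+CR against MTP, 0.11 (total counts) and 0.083 (both FPKM settings) in MTP against Control, and 0.053 without both number-4 libraries in MTP+CR against Control. In MTP+CR against MTP, with total counts, log2(FPKM + 1) and log2(FPKM + 0.1), Ndufaf1 had −0.10, −0.15 and −0.16, Sdhc −0.13, −0.13 and −0.13, and Cox7a2l −0.18, −0.19 and −0.20, while Cox6b2 had −0.10 with log2(FPKM + 0.1). Without both number-4 libraries Ndufaf1 had −0.11, Cox7a2l −0.059 and Sdha 0.022. mt-Nd6 had −0.29 with the length trend removed in MTP+CR against Control. The cause of these turns was not tested.

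With each library left out in turn, calls ranged over 0 to 65 between MTP+CR and MTP livers, 0 to 11 between MTP and Control livers and 0 to 14 between MTP+CR and Control livers, and the nuclear median of MTP against Control over −0.34 to 0.10. In MTP+CR against MTP, Ndufaf1 ranged over −0.083 to 0.67 and Sdha over −0.18 to 0.065. In MTP+CR against Control, mt-Co1 ranged over −0.20 to 0.053 and mt-Nd6 over −0.011 to 0.31. The log2 ratio of mitochondrial to nuclear counts kept its sign, at −0.75 to −0.13 between MTP+CR and MTP livers, −0.45 to −0.01 between MTP and Control livers and −0.95 to −0.39 between MTP+CR and Control livers.

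Correlations between the deviations of livers with the same number were −0.187 to 0.203, with 2 of 12 over 0.1. The highest was that of MTP 4 with MTP+CR 4 (0.203), and MTP 2 with MTP+CR 2 had 0.143. Whether livers with the same number shared any handling was not tested. With a replicate block 30, 0 and 0 members were called in MTP+CR against MTP, MTP against Control and MTP+CR against Control. Of all genes 4.85%, 1.43% and 0.0855% then rose. Members with few counts, such as Cox6b2 at or under 1.92 CPM, limit what a difference can show at this depth.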

Other observations

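Promoter letters of the nuclear members were also set beside the calls of MTP+CR against MTP, as a description only. Of 27 called members with a RefSeq promoter, 17 (63.0%) held CCAAT on either strand, against 15 of 45 (33.3%) tested members that were not called and 37.9% of all 27025 promoters. The NRF1 site stood in 5 of 27 (18.5%) called and 12 of 45 (26.7%) other members, ETS letters in 7 (25.9%) and 11 (24.4%), YY1 letters in 1 (3.70%) and 6 (13.3%), and TATAAA in 2 (7.41%) and 4 (8.89%), the last against 14.2% of all promoters. The tRNA gene mt-Ts2 had 116 counts in MTP+CR 2, 105 and 157 counts in MTP 1 and MTP 2 and 86 counts in Control 2, and 1 count in each of the other 8 libraries. Ndufb4 held 787 counts over all libraries and the processed pseudogene Ndufb4c, also a member by name, 6926.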
